A study of Mus musculus with 9 samples.

Results

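The later response to low oxygen was examined in mouse plantaris, a fast hindlimb muscle, as the comparison of 3 libraries taken after 6 h of exposure to 8% oxygen with 3 control libraries taken at 0 h. These 6 libraries were chosen by their time label from the 9 of the study, the other 3 being from mice exposed for 2 h. All groups were male C57BL/6J mice of 3 months, and the labels name no agent other than the lowered oxygen. Of 13722 genes in the authors' table, the 13309 with a mean of at least 0.5 RPKM (reads per kilobase of exon, scaled to the size of the library) over the 9 libraries were compared. The single control group was taken before any exposure, so clock time and handling over the 6 h cannot be told apart from the lowered oxygen.

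Oxygen below a cell's needs stabilises the hypoxia-inducible factors (HIF), which switch on genes for glycolysis and blood vessel growth. A whole animal in low oxygen also releases glucocorticoid hormones, and in muscle these act with the FoxO transcription factors, which are held out of the nucleus by insulin and PI3 kinase signalling, to move the fibre from growth towards fuel saving. Muscle further runs a circadian clock in which period and cryptochrome proteins repress their own activators.

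The libraries held between 72706716 reads in 6 h replicate 3 and 137097898 in 2 h replicate 3, as recovered from the RPKM steps. For most libraries these totals exceed the range in the submitters' protocol, and mates of a pair may be counted separately. Genes that define skeletal muscle were at like levels throughout, with a mean over 16 genes of -0.11 to 0.07 at 6 h and -0.12 to 0.10 in control libraries, as log2 distance from the mean of all 9. Other lists set single libraries apart (plot of fibre type and cell type lists). Collagen and matrix genes, as a mean over 27, stood at -0.21, 1.36 and -0.52 in 6 h replicates 1 to 3, against -0.21, 1.06 and 1.03 in control replicates 1 to 3. Macrophage markers ran the same way, at -0.46, 1.59 and -0.63 against -0.87, 0.94 and 0.95. Slow fibre genes were highest in 6 h replicate 3 (2.32), nerve and Schwann cell markers in 6 h replicate 1 (1.87), and so were adipocyte markers (1.46) and erythrocyte markers (1.43). In whole muscle, fewer cells of a type and less RNA per cell cannot be told apart. The part of these libraries in the results below was not tested except where a value without them is given.

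**Figure D1:**
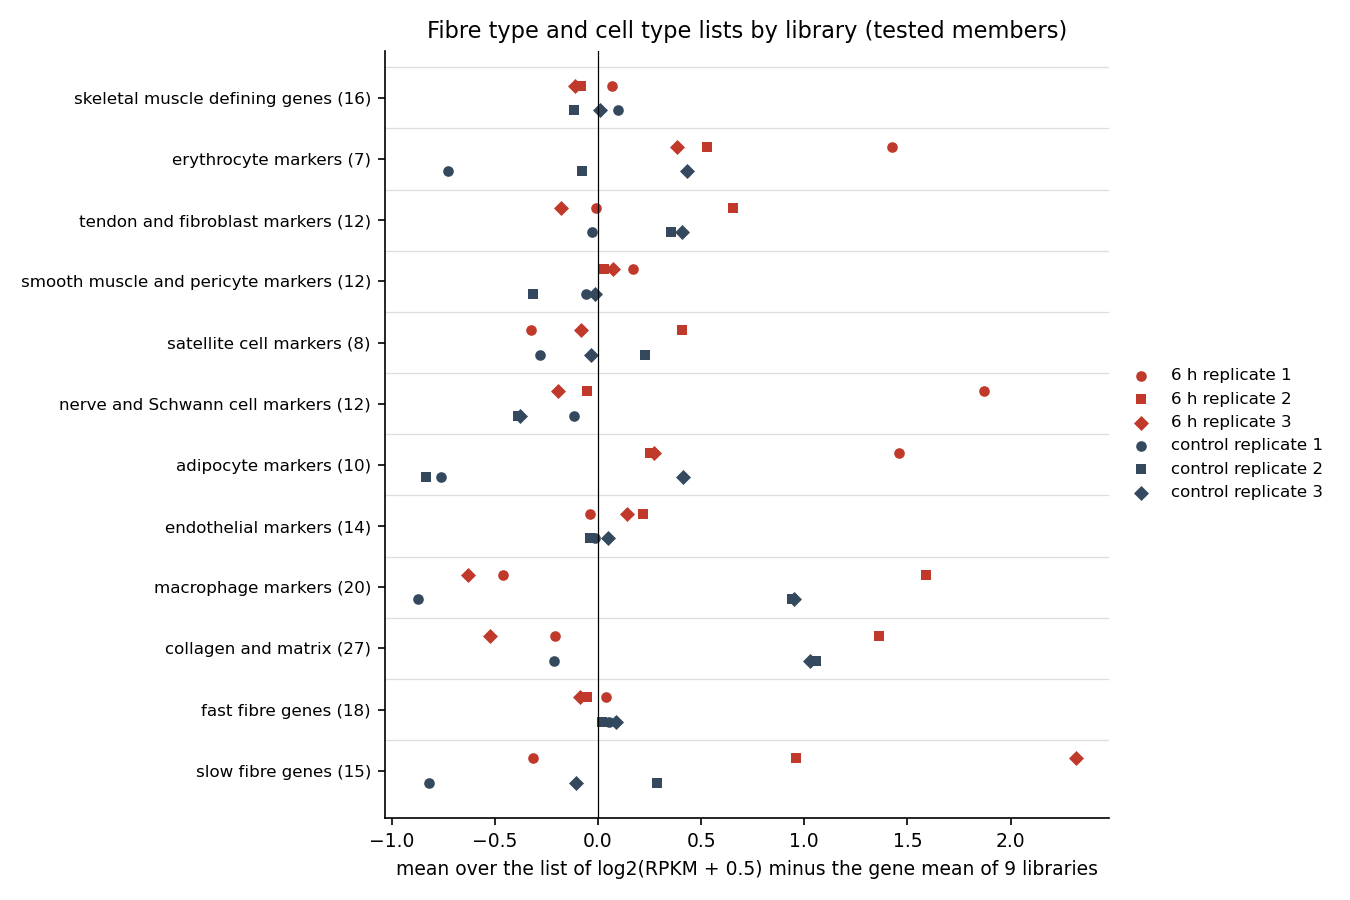
Mean of each fibre type and cell type list in the 3 libraries at 6 h (red) and the 3 control libraries (dark), as the mean over its tested members of log2(RPKM + 0.5) minus each gene's mean over 9 libraries. Muscle and fast fibre genes lie close to 0 in all 6 libraries, whereas matrix and macrophage lists are high in 6 h replicate 2 and control replicates 2 and 3.

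At 6 h 213 genes passed an adjusted p of 0.05 in the limma fit, 1.6% of those tested. Of these 133 were higher at 6 h (0.999% of the tested genes) and 80 were lower (0.601%). The risen genes ranged from a log2 difference of 0.40 to 1.86 with a median of 0.81, and 37 of them reached 1, a doubling. The fallen genes ranged from -0.42 to -2.46 with a median of -0.79, and 22 of them reached -1. The 6 h and control libraries were apart in all 213, beside 25.9% of tested genes (16.9% with 6 h higher and 8.99% with 6 h lower). The split of 133 and 80 depended on scaling: it was 111 and 131 after median centring, 122 and 155 after quantile normalization and 123 and 193 in edgeR on recovered reads. The median of all tested genes was 0.05 on the log2 scale in the RPKM fit and 0.01 in that edgeR fit.

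The number of calls changed widely when single libraries were left out. Loss of power with fewer libraries was not separated from the weight of a single library. None of the 213 genes changed sign in any of 24 alternative fits. Those fits reuse libraries on which the genes were chosen, so the kept sign is no separate support. Leaving out control replicate 2 gave 25 calls and leaving out control replicate 3 gave 15. There were 18 calls without 6 h replicate 1 and 10 without 6 h replicate 3. The count was 417 without 6 h replicate 2, 144 without control replicate 1, and 110 and 101 without 2 h replicates 2 and 3, which enter only through the estimate of spread. Without the 3 libraries high in matrix genes, which leaves 1 control, limma called 0 genes, with 1649 at an unadjusted p under 0.05 against 2543 in the reported fit. On the recovered reads of all 9 libraries edgeR called 316 genes and DESeq2 called 1129, and 179 of the 213 passed in both. In the 6 fits that each leave out 1 of the 6 h or control libraries, 34 of the 213 genes were called in none, 83 in 1, 69 in 2 and 27 in 3 or more.

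Most genes described below therefore lost their call in most of these 6 fits. Those called in none of the 6 were Sesn1, Pik3ip1, Heyl, Eya2, Lmod2, Trp53inp1, Slc30a1, Paox and 1700034H15Rik. Those called in 1 of the 6 were Trib1, Fam107a, Sult1a1, Ddit4, Dgat2, Abca1, Mylip, Ucp3, Fmo2, Yap1, Eya1, Flcn, Dusp10, Tob1, Gadd45b, Rbm39, Srrm1, Sf3b1, Clk1, Papola, Ncbp2, Mettl3, Cirbp, 2210403K04Rik, Tlcd2, Tnfrsf19, Tcfcp2l1, B4galt5, Fam70b and Gm13068. Those called in 2 of the 6 were Fkbp5, Pnmt, Pik3r1, Fbxo21, Per1, Usp2, Meox1, Tcap, Jup, Dysfip1, Asb5, Klhl31, Adcy4, Akap1, Zfp36, Inmt, Slc39a10, Mir29c, Robo4, Gata2, Doc2b, Ephb1, Ift27, Cys1, Tmem229b, Cdhr3, B3galnt2, RP24-337A16.1, Gm16559 and Slc25a33. Acvr1, Myod1, Mterf, Stard3, Adh1, Aldh1l1 and Neat1 were called in 3, Pde4b, Acvr1b, Tmem100 and Ccdc69 in 4, and Gm11016 in 5. Under both median centring and quantile normalization, Pik3ip1, Paox, Usp2, Dgat2, Ucp3 and Clk1 lost their calls. Fmo2 and Heyl lost theirs under median centring but not quantile normalization, and Tcap, Lmod2 and Rbm39 the reverse. On recovered reads edgeR did not call Pik3ip1, Paox, Usp2, Ucp3, Lmod2, Rbm39, Eya2, 1700034H15Rik, Gm13068, Gm17345, Mterf or Mir29c. DESeq2 called all of these but Mir29c and Mterf, and Mterf had no adjusted p there.

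**Figure D2:**
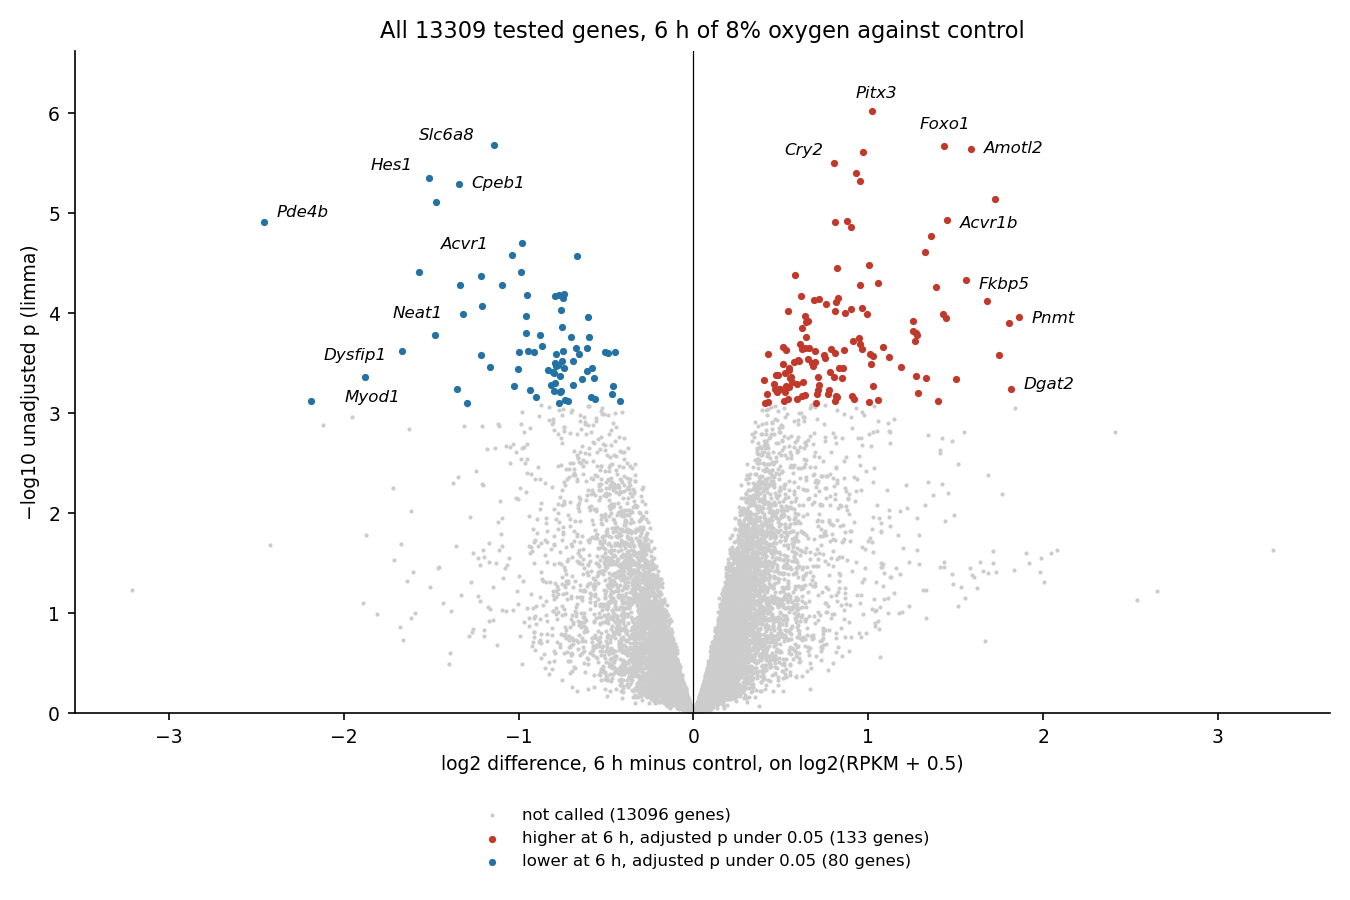
Log2 difference (6 h minus control, horizontal axis) against −log10 of the unadjusted limma p (vertical axis) for all 13309 tested genes, with the 133 genes called higher in red and the 80 called lower in blue. Falls reach -2.46 for Pde4b, and rises reach 1.86 for Pnmt.

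The remaining 9 genes stayed called in all 6 of those fits, and each also passed in 23 of the 24 alternatives, the exception being the fit with 1 control. They were picked out after their values were seen. Those that rose were Foxo1, Cry2, Pitx3, Amotl2, Agfg2 and BC031353, and those that fell were Hes1, Cpeb1 and Slc6a8. Pitx3, a homeobox transcription factor of eye, midbrain and muscle, lies at chr19:46210175-46222865 in the mm9 build. It measured 4.24, 4.68 and 4.36 RPKM at 6 h, against 1.97, 1.91 and 1.897 RPKM in control libraries (log2 difference 1.02 ± 0.09 SE, adjusted p = 0.00651). The control values were nearly equal, and every 6 h value stood far above them. Agfg2, which carries an Arf GTPase-activating domain, measured 4.71, 4.25 and 4.996 RPKM at 6 h, against 2.0999, 2.28 and 2.21 RPKM in control (log2 difference 0.93 ± 0.09 SE, adjusted p = 0.00671). BC031353, for which no role is given here, stood at 7.38, 6.695 and 7.35 RPKM against 3.47, 3.23 and 3.498 RPKM (log2 difference 0.97 ± 0.09 SE, adjusted p = 0.00651).

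Counts called in the FoxO list and in every list below are to be read beside 0.999% of all tested genes called higher and 0.601% lower. Foxo1, the FoxO factor itself, lies at chr3:52072259-52154031 in mm9. It stood at 13.2, 13.8 and 14.7 RPKM at 6 h, against 5.17, 4.47 and 4.85 RPKM in control (log2 difference 1.43 ± 0.14 SE, adjusted p = 0.00651). All 6 h libraries stood far above all control libraries, and the call held in 6 of 6 left-out fits. Of 25 FoxO factors and targets 3 rose and 0 fell, with a median log2 difference of 0.18 against 0.05 for all tested genes. The other risen members were Fbxo21, a ubiquitin ligase subunit (5.14, 3.69 and 4.65 RPKM at 6 h against 2.41, 1.96 and 2.28 RPKM in control; log2 0.87), and Sesn1, a sestrin that restrains mTORC1. Sesn1 measured 14.7, 16.4 and 13.5 RPKM at 6 h, against 7.73, 7.897 and 8.93 RPKM in control (log2 difference 0.82 ± 0.16 SE, adjusted p = 0.0475), and was called in 0 of 6 left-out fits. Foxo3, a second FoxO factor, measured 3.03, 2.903 and 3.34 RPKM at 6 h and 1.901, 1.36 and 1.69 RPKM in control without passing (log2 difference 0.75 ± 0.25 SE, adjusted p = 0.163).

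Of 29 insulin receptor and PI3 kinase genes 2 rose and 1 fell, with a median of 0.06. Pik3r1, the regulatory subunit that both stabilises and restrains PI3 kinase, measured 21.6, 16.4 and 21.3 RPKM at 6 h, against 10.1, 5.79 and 5.802 RPKM in control. The lowest 6 h library was above the highest control library, control replicate 1, which itself stood well above the other controls. Its call held in 2 of 6 left-out fits. Its catalytic partner Pik3ca went the other way in value, at 6.69, 6.94 and 5.49 RPKM at 6 h against 9.51, 8.67 and 8.76 RPKM in control, and did not pass (log2 difference -0.47 ± 0.12 SE, adjusted p = 0.0858). Pik3ip1, a membrane inhibitor of the enzyme, rose to 16.02, 15.2 and 14.1 RPKM against 11.4, 9.99 and 9.78 RPKM (log2 difference 0.52 ± 0.10 SE, adjusted p = 0.0449). Trib1, a pseudokinase that lowers C/EBP proteins, fell to 2.48, 4.28 and 2.92 RPKM at 6 h, against 5.79, 7.65 and 6.16 RPKM in control. The insulin receptor Insr stood at 4.44, 3.92 and 4.54 RPKM at 6 h and 7.15, 5.401 and 6.19 RPKM in control (log2 difference -0.49 ± 0.12 SE, adjusted p = 0.0882), again without overlap and without passing.

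Glucocorticoid-responsive genes held the largest share of called genes of any list with at least 20 tested members, 7 higher and 1 lower of 29, with a median log2 difference of 0.62. The risen members include Foxo1, Pik3r1 and Per1, which are also counted in the FoxO, PI3 kinase and clock lists. Pnmt is counted again among methyltransferases and Ddit4 among HIF targets, so these lists are not separate lines of change. The list was assembled with earlier results of these data known, so its direction is a description. Fkbp5, a co-chaperone of the glucocorticoid receptor, measured 77.7, 88.1 and 69.98 RPKM at 6 h, against 23.1, 23.9 and 25.5 RPKM in control. The controls were close together and every 6 h library stood far above them, yet the call held in 2 of 6 left-out fits, and likewise for Pnmt. Pnmt, the enzyme that turns noradrenaline into adrenaline and a classical glucocorticoid target of the adrenal medulla, stood at 12.6, 10.9 and 16.7 RPKM at 6 h, against 4.91, 2.18 and 3.16 RPKM in control. Its difference between 6 h and 2 h, 1.66 on the log2 scale, did not pass (adjusted p = 0.069). Fam107a, a stress-inducible actin-binding protein, measured 8.83, 5.22 and 6.604 RPKM at 6 h, against 3.07, 2.43 and 3.03 RPKM in control, and Sult1a1, a phenol sulfotransferase, 26.4, 21.03 and 22.2 RPKM against 12.2, 9.65 and 13.8 RPKM. Ddit4, an inhibitor of mTORC1 that both glucocorticoids and HIF can raise, fell to 69.9, 81.8 and 55.8 RPKM at 6 h, against 117, 109 and 123 RPKM in control.

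Of the other 21 members of the glucocorticoid list, 10 had an unadjusted p under 0.05 in limma and 11 did not. Among all tested genes it was 2330 of the 13096 not called. A lower mean at 6 h was found in 7 of all 29, beside 5667 of 13309 tested genes. The following 3 are among those with the smallest p. Klf15, a transcription factor of amino acid breakdown, stood at 18.7, 18.7 and 25.2 RPKM at 6 h, against 12.4, 10.1 and 12.2 RPKM in control (log2 difference 0.82 ± 0.17 SE, adjusted p = 0.0521). Hsd11b1, the enzyme that regenerates active glucocorticoid inside cells, stood at 8.65, 8.91 and 7.396 RPKM at 6 h, against 5.42, 4.24 and 5.496 RPKM in control (log2 difference 0.67 ± 0.14 SE, adjusted p = 0.0507). Bcl2l1, which encodes the survival protein Bcl-xL, measured 13.5, 18.6 and 18.1 RPKM at 6 h and 10.2, 11.2 and 10.7 RPKM in control (log2 difference 0.61 ± 0.16 SE, adjusted p = 0.0997). All 3 had 6 h libraries above every control library.

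**Figure D3:**
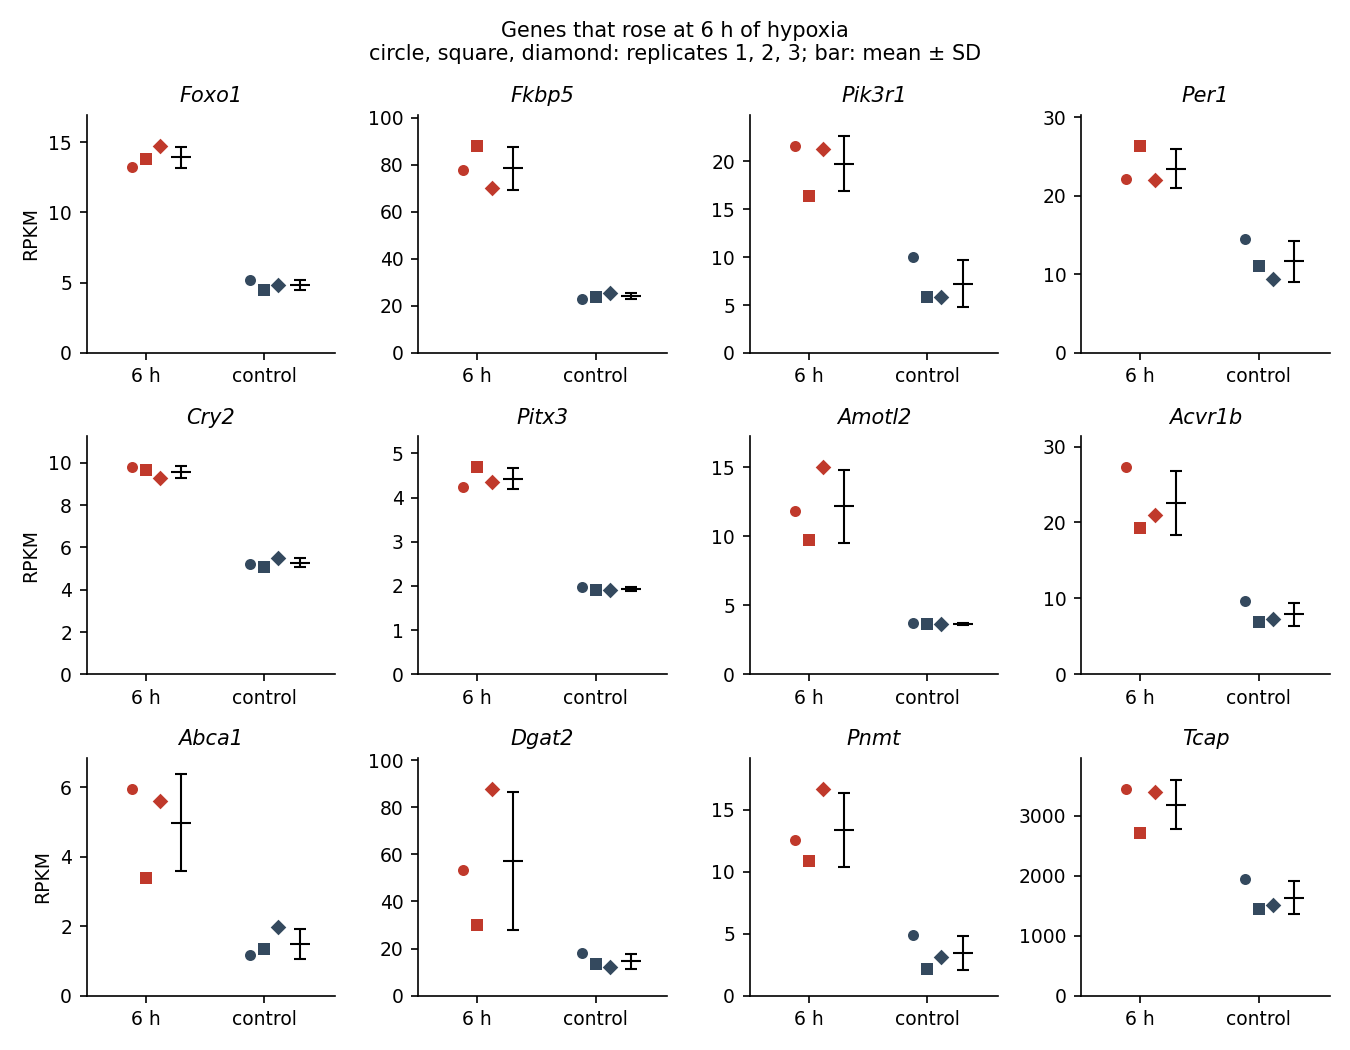
RPKM of 12 genes that rose, in each library at 6 h (red, left) and in control (dark, right), with mean ± SD (n = 3 each) beside the points and each vertical axis starting at 0. In every panel the 6 h libraries lie above all control libraries, as for every gene called higher. Dgat2 spreads most, from 29.9 to 87.9 RPKM at 6 h.

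Clock genes stood apart in both directions. Of 10 clock repressors and period genes 2 rose and 0 fell (median 0.27), beside 0.999% and 0.601% of all tested genes. Their 6 h and control libraries were apart in 3 with 6 h higher and in 3 with 6 h lower. Of 12 activators and output genes 1 rose (median 0.28). Cry2, a cryptochrome, measured 9.797, 9.66 and 9.27 RPKM at 6 h, against 5.204, 5.09 and 5.51 RPKM in control (log2 difference 0.80 ± 0.08 SE, adjusted p = 0.00671), and was called in 6 of 6 left-out fits. Per1, a period gene that glucocorticoids also induce, measured 22.1, 26.3 and 21.9 RPKM at 6 h, against 14.5, 11.001 and 9.43 RPKM in control, and was called in 2 of 6. Usp2, a deubiquitinase with clock-driven expression, stood at 49.4, 48.3 and 54.02 RPKM against 38.3, 25.7 and 29.7 RPKM, with control replicate 1 the highest control. Per2 stood at 3.43, 3.09 and 3.62 RPKM at 6 h, against 2.38, 0.817 and 0.976 RPKM in control, and Per3 at 2.75, 1.85 and 2.55 RPKM against 1.89, 0.796 and 0.978 RPKM. Control replicate 1 was again the highest control for both, and neither passed (adjusted p = 0.0692 and 0.126). The repressor Bhlhe40 stood lower in value, at 12.9, 17.9 and 15.97 RPKM at 6 h against 35.4, 34.5 and 24.7 RPKM in control (log2 difference -0.99 ± 0.21 SE, adjusted p = 0.0584). The activator Arntl stood at 4.53, 3.07 and 2.902 RPKM at 6 h and 4.74, 6.98 and 9.12 RPKM in control (log2 difference -0.88 ± 0.27 SE, adjusted p = 0.132).

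The promoter of Per1 holds an E-box, the hexamer CACGTG to which the clock activators bind, and so do the promoters of Fkbp5, Acvr1b and Abca1, shown because Per1 is the clock gene among them and the other 3 have the largest differences of the named risen genes that hold one. The windows are RefSeq sequence of build GRCm38.p6, 5′ to 3′ on the gene's strand, with the E-box in capitals.
Per1 (chr11:69098746-69098825, plus strand): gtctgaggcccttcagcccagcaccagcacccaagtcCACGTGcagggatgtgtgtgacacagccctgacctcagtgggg
Fkbp5 (chr17:28486276-28486355, minus strand): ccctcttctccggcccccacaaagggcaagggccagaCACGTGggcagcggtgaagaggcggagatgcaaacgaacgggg
Acvr1b (chr15:101173981-101174060, plus strand): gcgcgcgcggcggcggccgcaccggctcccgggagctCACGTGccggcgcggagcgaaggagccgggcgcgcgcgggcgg
Abca1 (chr4:53160000-53160079, minus strand): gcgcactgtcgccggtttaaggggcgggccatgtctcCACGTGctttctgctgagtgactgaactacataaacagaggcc
The first base of the E-box lies at -166 in Per1, -169 in Fkbp5, -54 in Acvr1b and -147 in Abca1, counted from the start site. CACGTG reads the same on both strands and contains ACGTG, the core of the hypoxia response element, so neither can be told from the other here. Among promoters of 300 bases, CACGTG occurred in 17 of 105 risen genes (16.2%), 5 of 56 fallen genes (8.93%) and 1042 of 10085 tested genes (10.3%). ACGTG on either strand occurred in 34.3%, 25.0% and 25.8% of these. The glucocorticoid receptor core ACANNNTGT occurred in 3.81% of risen, 3.57% of fallen and 4.25% of all promoters, and the FoxO element TGTTTAC in 3.81%, 3.57% and 2.47%. No test was made, and a match is no evidence of binding.

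Receptors of the activin and BMP family moved apart. Acvr1b, the type I receptor for activins and myostatin, measured 27.3, 19.3 and 20.99 RPKM at 6 h, against 9.63, 6.87 and 7.24 RPKM in control (log2 difference 1.45 ± 0.17 SE, adjusted p = 0.0101). Acvr1, a type I receptor for BMPs, measured 1.499, 1.95 and 1.78 RPKM at 6 h, against 4.33, 4.56 and 3.45 RPKM in control (log2 difference -1.04 ± 0.13 SE, adjusted p = 0.0161). The groups did not overlap in either gene, and the 2 were called in 4 and 3 of 6 left-out fits. No other of the 26 tested members of the list passed, and its median was -0.21. Mstn, the ligand myostatin that holds muscle mass down, stood at 11.6, 10.2 and 7.93 RPKM at 6 h, against 18.8, 15.8 and 18.9 RPKM in control, just short of the threshold (log2 difference -0.83 ± 0.17 SE, adjusted p = 0.0513). The BMP co-receptor and TGF-beta receptor Tgfbr3 stood at 6.002, 6.24 and 5.32 RPKM at 6 h and 3.12, 3.203 and 4.24 RPKM in control (log2 difference 0.67 ± 0.15 SE, adjusted p = 0.0655), and Smurf2, a ligase that removes such receptors, at 3.83, 3.76 and 3.86 RPKM and 5.66, 4.85 and 5.08 RPKM (log2 difference -0.40 ± 0.10 SE, adjusted p = 0.0751).

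Of 24 Notch pathway genes 2 fell and 0 rose, beside 0.601% and 0.999% of all tested genes. Both fallen genes encode transcriptional repressors. Hes1 measured 5.06, 7.57 and 5.61 RPKM at 6 h, against 17.2, 20.9 and 16.4 RPKM in control (log2 difference -1.51 ± 0.16 SE, adjusted p = 0.00671), and was called in 6 of 6 left-out fits. The 2 h libraries already stood at 6.37, 6.59 and 5.43 RPKM, and the difference between 6 h and 2 h did not pass (log2 -0.03, adjusted p = 0.952). Heyl, a related Notch effector, measured 1.11, 1.21 and 1.29 RPKM at 6 h, against 1.96, 1.89 and 2.196 RPKM in control (log2 difference -0.56 ± 0.11 SE, adjusted p = 0.0484), but was called in 0 of 6 left-out fits and not after median centring. None of the other 22 tested Notch genes passed, and the ligand Dll4 stood at 1.28, 1.16 and 1.85 RPKM at 6 h and 0.9901, 0.814 and 0.713 RPKM in control (log2 difference 0.51 ± 0.18 SE, adjusted p = 0.184). The list's median was 0.13.

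In the Hippo pathway, which restrains the growth coactivator Yap1, 1 of 22 genes rose and 1 fell (median -0.13). Amotl2, an angiomotin that holds Yap1 out of the nucleus, measured 11.8, 9.71 and 14.98 RPKM at 6 h, against 3.71, 3.62 and 3.63 RPKM in control (log2 difference 1.59 ± 0.15 SE, adjusted p = 0.00651). The controls were nearly equal, and 6 h also exceeded 2 h (4.78, 6.15 and 5.29 RPKM; log2 1.08, adjusted p = 0.0499). Yap1 measured 8.88, 10.7 and 7.66 RPKM at 6 h, against 13.3, 17.2 and 15.2 RPKM in control (log2 difference -0.72 ± 0.14 SE, adjusted p = 0.0488), and was called in 1 of 6 left-out fits. Its partners Wwtr1 (log2 -0.46, adjusted p = 0.126) and Tead4 (log2 -0.74, adjusted p = 0.105) did not pass.

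Among 22 myogenic regulators 1 rose, Pitx3, and 2 fell (median -0.06). Myod1, the bHLH factor that commits cells to muscle, measured 2.104, 2.44 and 1.86 RPKM at 6 h, against 5.88, 17.8 and 7.17 RPKM in control (log2 difference -1.88 ± 0.35 SE, adjusted p = 0.0386). Control replicate 2, one of the libraries high in matrix genes, held the highest value, but the lowest control was still far above every 6 h library. Eya1, a coactivator of homeobox factors, measured 2.804, 4.29 and 3.27 RPKM at 6 h, against 5.92, 6.19 and 5.96 RPKM in control (log2 difference -0.74 ± 0.13 SE, adjusted p = 0.0353). Its relative Eya2 was higher at 6 h, at 3.13, 2.96 and 2.38 RPKM against 1.52, 1.64 and 1.72 RPKM (log2 difference 0.64 ± 0.13 SE, adjusted p = 0.0466), and the homeobox gene Meox1 was lower, at 0.544, 0.666 and 0.647 RPKM against 1.29, 1.795 and 1.77 RPKM (log2 difference -0.91 ± 0.16 SE, adjusted p = 0.0318). Both lay outside the list and were picked after their values were seen. Myf6, the bHLH factor of mature fibres, stood at 35.3, 45.2 and 31.3 RPKM at 6 h and 48.02, 96.4 and 79.4 RPKM in control (log2 difference -0.95 ± 0.23 SE, adjusted p = 0.0814). Satellite cell markers had a mean of -0.32, 0.41 and -0.08 in the 6 h libraries and -0.28, 0.23 and -0.03 in the control libraries, and their part was not tested.

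Tcap, or telethonin, which caps titin at the Z-disc, measured 3456, 2718 and 3398 RPKM at 6 h, against 1954, 1452 and 1509.7 RPKM in control (log2 difference 0.97 ± 0.14 SE, adjusted p = 0.0243). Lmod2, or leiomodin, which nucleates actin filaments, measured 158, 175 and 166 RPKM at 6 h, against 87.5, 98.1 and 106 RPKM in control (log2 difference 0.78 ± 0.15 SE, adjusted p = 0.0438). Jup, the junction protein plakoglobin, measured 43.3, 45.1 and 39.8 RPKM at 6 h, against 23.4, 26.9 and 22.1 RPKM in control (log2 difference 0.81 ± 0.12 SE, adjusted p = 0.0229), and also exceeded 2 h (log2 0.83, adjusted p = 0.0499). These 3 were picked after their values were seen. Dysfip1, a regulator of protein phosphatase that binds the membrane repair protein dysferlin, fell to 20.3, 37.4 and 29.01 RPKM, against 66.5, 116 and 94.4 RPKM in control (log2 difference -1.66 ± 0.28 SE, adjusted p = 0.0318). None of 16 genes that define skeletal muscle, 18 fast fibre genes or 15 slow fibre genes passed. The slow fibre median of 1.17 came with 6 h replicate 3 and replicate 2: Myh7, the slow myosin heavy chain, stood at 1.901, 29.2 and 169.8 RPKM at 6 h and 1.48, 3.06 and 1.26 RPKM in control.

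Of 29 muscle ubiquitin ligase genes 2 fell, both substrate adaptors, and 0 rose, beside 0.601% and 0.999% of all tested genes (median -0.07). The mean at 6 h was higher in 11 of the 29 and lower in 18. The 6 h and control libraries were apart in 5 with 6 h higher and in 10 with 6 h lower. DESeq2 on recovered reads called 3 higher and 6 lower. Asb5 measured 89.9, 106 and 85.6 RPKM at 6 h, against 159, 207 and 182 RPKM in control (log2 difference -0.95 ± 0.14 SE, adjusted p = 0.0227). Klhl31, a kelch adaptor needed for sarcomere upkeep, measured 15.1, 16.8 and 15.6 RPKM at 6 h, against 26.9, 25.96 and 28.1 RPKM in control (log2 difference -0.75 ± 0.11 SE, adjusted p = 0.0227). The related Asb2 (97.3, 86.6 and 98.1 RPKM at 6 h against 164, 144 and 151 RPKM in control; adjusted p = 0.0528) and Asb12 (13.3, 11.8 and 10.4 RPKM against 17.7, 22.1 and 21.003 RPKM; adjusted p = 0.0541) were lower in every 6 h library without passing.

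Pde4b, the phosphodiesterase that ends cyclic AMP signals, lies at chr4:101760148-102279864 in mm9. It measured 3.17, 3.704 and 2.48 RPKM at 6 h, against 17.7, 28.3 and 13.9 RPKM in control, the largest fall of all called genes (log2 difference -2.46 ± 0.29 SE, adjusted p = 0.0101). Every control stood far above the highest 6 h library. It was the only called gene of 31 in the cyclic AMP list (median -0.08). Adcy4, an adenylyl cyclase that makes cyclic AMP, was lower too, at 1.08, 1.38 and 1.18 RPKM against 2.46, 2.89 and 3.05 RPKM (log2 difference -0.95 ± 0.16 SE, adjusted p = 0.0318), and so was Akap1, which anchors its kinase to mitochondria, at 12.6, 14.8 and 15.4 RPKM against 24.6, 25.97 and 24.3 RPKM (log2 difference -0.79 ± 0.11 SE, adjusted p = 0.0227). The last 2 lay outside the list and were picked after their values were seen. Crem, an inducible repressor at cyclic AMP response elements, stood at 2.27, 3.56 and 3.04 RPKM at 6 h and 4.41, 5.67 and 6.48 RPKM in control (log2 difference -0.80 ± 0.17 SE, adjusted p = 0.0568).

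The cyclic AMP response element TGACGTCA, which reads the same on both strands, was found in 0 of 105 promoters of risen genes, 5 of 56 of fallen genes (8.93%) and 321 of 10085 of all tested genes (3.18%). Flcn and Mterf are shown as the named fallen genes that hold it, with the element in capitals, in GRCm38.p6 from RefSeq.
Flcn (chr11:59810044-59810125, minus strand): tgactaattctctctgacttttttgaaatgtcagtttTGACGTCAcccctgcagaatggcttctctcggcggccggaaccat
Mterf (chr5:3893940-3894021, minus strand): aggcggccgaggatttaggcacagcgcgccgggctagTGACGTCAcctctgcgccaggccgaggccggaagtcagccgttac
Its first base lies at -49 in Flcn and -51 in Mterf, and no other motif searched falls in either window. Flcn, or folliculin, which tunes mTORC1 signalling to lysosomes, measured 6.31, 7.32 and 6.698 RPKM at 6 h, against 12.8, 14.3 and 14.98 RPKM in control (log2 difference -0.997 ± 0.17 SE, adjusted p = 0.0318). Mterf, a mitochondrial transcription termination factor, measured 0.819, 0.587 and 0.305 RPKM at 6 h, against 3.27, 2.29 and 2.39 RPKM in control (log2 difference -1.57 ± 0.21 SE, adjusted p = 0.02). Both genes had 6 h libraries far below every control. On recovered reads edgeR called Flcn but not Mterf, for which DESeq2 gave no adjusted p. These shares rest on few promoters and were not tested.

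Dusp10, a phosphatase that switches off stress MAP kinases, measured 4.09, 4.69 and 3.28 RPKM at 6 h, against 15.9, 10.5 and 10.3 RPKM in control, and was the only called gene of 19 MAPK phosphatases and feedback inhibitors (median -0.24). Of 29 genes for mRNA decay and AU-rich element binding 3 fell and 0 rose (median -0.09). Zfp36, or tristetraprolin, which marks inflammatory mRNAs for decay, measured 5.53, 7.84 and 5.63 RPKM at 6 h, against 14.6, 16.7 and 14.2 RPKM in control (log2 difference -1.21 ± 0.18 SE, adjusted p = 0.024). Tob1, which recruits deadenylases, measured 28.9, 35.2 and 28.5 RPKM at 6 h, against 64.4, 49.6 and 48.2 RPKM in control (log2 difference -0.79 ± 0.14 SE, adjusted p = 0.0345). Cpeb1, which controls cytoplasmic polyadenylation, measured 3.59, 3.54 and 2.48 RPKM at 6 h, against 7.802, 9.64 and 8.98 RPKM in control (log2 difference -1.34 ± 0.14 SE, adjusted p = 0.00671). All 3 had 6 h libraries below every control, and the calls held in 2, 1 and 6 of 6 left-out fits. Cpeb2 and Tob2 stood lower in each 6 h library without passing (adjusted p = 0.0548 and 0.0573). Immediate early and AP-1 factors had 1 member called, Zfp36, and a median of -0.39 over 28; their mean was 0.83 in control replicate 2 and -0.25 in control replicate 1.

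**Figure D4:**
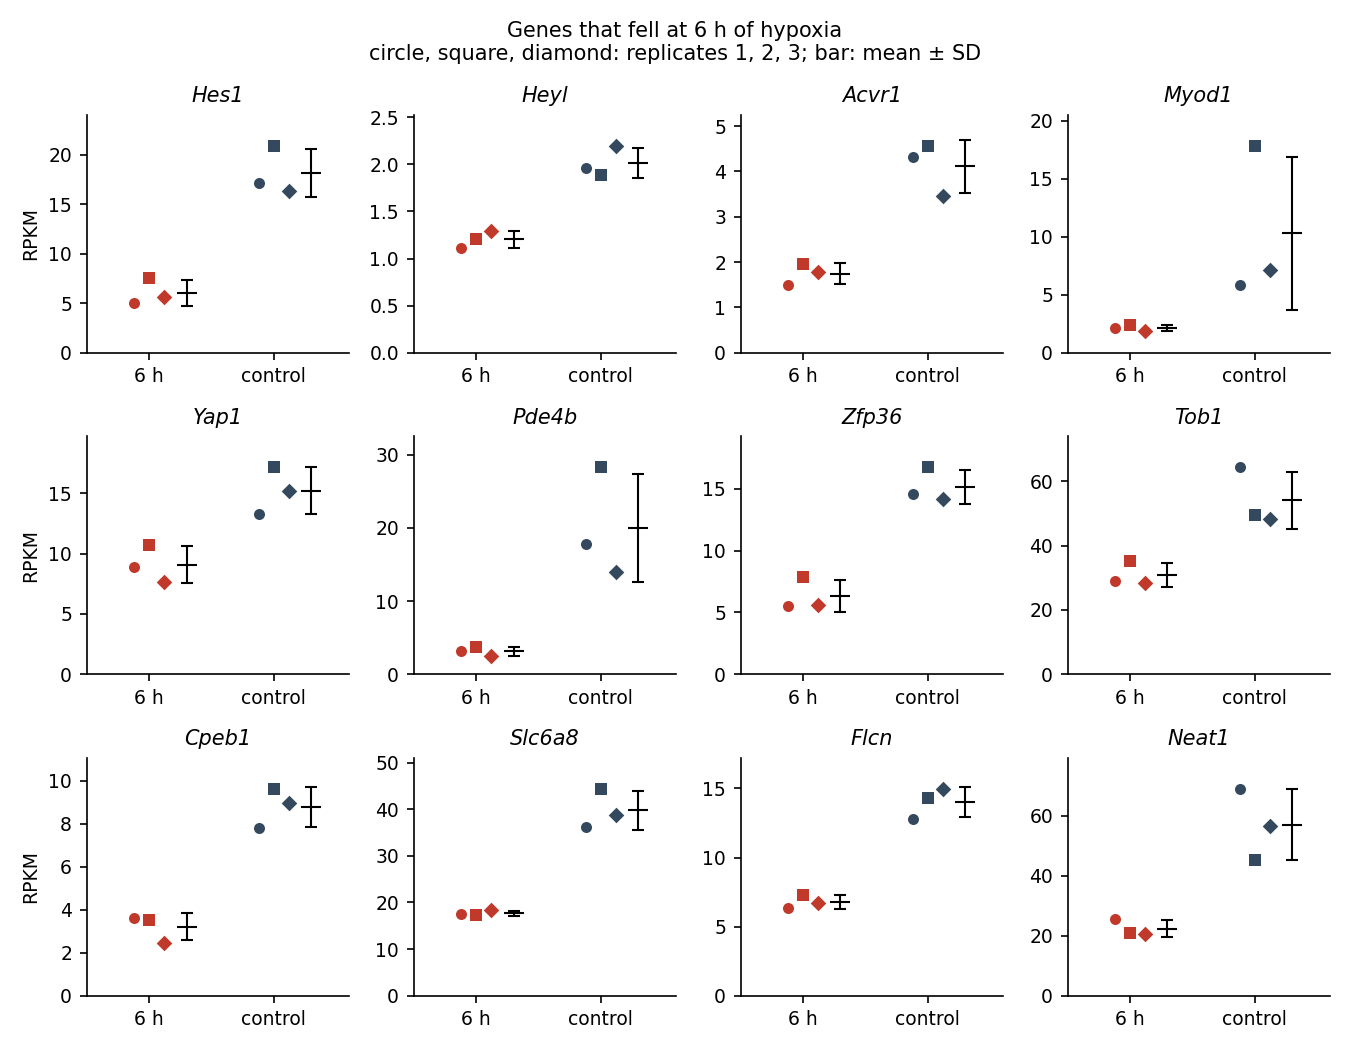
RPKM of 12 genes that fell, in each library at 6 h (red, left) and in control (dark, right), with mean ± SD (n = 3 each) beside the points and each vertical axis starting at 0. In every panel all 6 h libraries lie below all control libraries, as for every gene called lower. Control replicate 2 is far above the other controls for Myod1 and Pde4b.

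Of 23 genes of p53 signalling and growth arrest 2 rose, Sesn1 and Trp53inp1, and 1 fell, Gadd45b (median -0.05). Trp53inp1, a stress protein of autophagy and p53 signalling, measured 6.57, 7.297 and 5.99 RPKM at 6 h, against 3.89, 3.096 and 3.97 RPKM in control (log2 difference 0.78 ± 0.14 SE, adjusted p = 0.0368). Gadd45b, an activator of stress kinases, measured 13.7, 12.97 and 11.7 RPKM at 6 h, against 30.9, 25.5 and 17.96 RPKM in control (log2 difference -0.90 ± 0.18 SE, adjusted p = 0.0469). Trp53 itself stood at 2.14, 3.16 and 2.38 RPKM at 6 h and 3.62, 5.58 and 5.44 RPKM in control (log2 difference -0.81 ± 0.17 SE, adjusted p = 0.0578), and Gadd45g at 90.4, 102 and 66.8 RPKM and 158, 162 and 142 RPKM (log2 difference -0.85 ± 0.23 SE, adjusted p = 0.103).

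Of 25 genes of cholesterol and sterol handling 2 rose and 0 fell (median 0.22). Abca1, which exports cholesterol from cells, measured 5.96, 3.39 and 5.59 RPKM at 6 h, against 1.17, 1.33 and 1.97 RPKM in control (log2 difference 1.45 ± 0.22 SE, adjusted p = 0.0243). Mylip, a ubiquitin ligase that shares with Abca1 the sterol-sensing LXR as regulator, measured 9.76, 8.23 and 8.48 RPKM at 6 h, against 4.503, 3.82 and 5.15 RPKM in control (log2 difference 0.91 ± 0.18 SE, adjusted p = 0.0467). Stard3, which moves cholesterol between endosomes and other membranes, was higher as well (10.8, 10.5 and 11.5 RPKM at 6 h against 6.22, 6.26 and 5.597 RPKM in control; log2 0.81), outside the list and picked after its value was seen. The calls of Abca1 and Mylip held in 1 and 1 of 6 left-out fits.

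Of 34 genes of fatty acid uptake and triglyceride storage 1 rose, with a median of 0.26. Dgat2, which makes triglycerides, measured 53.5, 29.9 and 87.9 RPKM at 6 h, against 18.3, 13.3 and 12.3 RPKM in control (log2 difference 1.82 ± 0.35 SE, adjusted p = 0.0438). The highest 6 h value was in replicate 3 and the lowest in replicate 2, which still exceeded every control. Adipocyte markers, in contrast, were highest in 6 h replicate 1: Adipoq, or adiponectin, stood at 22.03, 5.77 and 6.48 RPKM at 6 h and 1.35, 1.38 and 7.22 RPKM in control. Of 10 tested adipocyte markers 9 had a higher mean at 6 h, beside 7641 of 13309 tested genes, and 0 passed (median 1.12). Their part in the Dgat2 result was not tested. Plin4, a lipid droplet coat protein, stood at 85.7, 69.8 and 83.2 RPKM at 6 h and 35.1, 32.8 and 40.6 RPKM in control (log2 difference 1.13 ± 0.25 SE, adjusted p = 0.0632), and Agpat2 at 9.69, 4.802 and 6.14 RPKM and 3.18, 3.47 and 3.22 RPKM (log2 difference 0.91 ± 0.20 SE, adjusted p = 0.0606). Of 34 genes of fatty acid oxidation and uncoupling only Ucp3, a mitochondrial uncoupling protein, passed, at 180.4, 159 and 184 RPKM at 6 h against 89.9, 75.4 and 95.3 RPKM in control (log2 difference 1.004 ± 0.20 SE, adjusted p = 0.0488).

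Genes of small-molecule methylation and creatine supply held 2 rises, Inmt and the Pnmt described above, and 1 fall of 17 tested (median 0.21). Inmt, which methylates indoles and thioethers, measured 24.1, 14.3 and 14.4 RPKM at 6 h, against 5.97, 3.17 and 5.52 RPKM in control (log2 difference 1.75 ± 0.30 SE, adjusted p = 0.0318). The 2 h libraries stood at 13.3, 21.9 and 24.5 RPKM, and the difference between 6 h and 2 h did not pass (adjusted p = 0.802). Slc6a8, the transporter that brings creatine into the fibre, lies at chrX:70918489-70927841 in mm9. It measured 17.5, 17.3 and 18.3 RPKM at 6 h, against 36.1, 44.4 and 38.8 RPKM in control (log2 difference -1.14 ± 0.11 SE, adjusted p = 0.00651). Its 6 h values were close together and the call held in 6 of 6 left-out fits. Outside the list, Adh1, an alcohol dehydrogenase, was higher at 45.9, 45.9 and 51.5 RPKM against 22.6, 26.4 and 21.8 RPKM (log2 difference 1.004 ± 0.13 SE, adjusted p = 0.019), Fmo2, a flavin monooxygenase, at 7.97, 4.65 and 7.83 RPKM against 2.22, 2.42 and 2.74 RPKM (log2 difference 1.27 ± 0.23 SE, adjusted p = 0.0385), and Aldh1l1, a folate enzyme, at 7.46, 4.35 and 4.54 RPKM against 1.704, 1.54 and 1.91 RPKM (log2 difference 1.39 ± 0.19 SE, adjusted p = 0.0215).

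Zinc transporters of opposite direction moved oppositely in value. Slc30a1, which exports zinc from the cell, measured 2.88, 3.39 and 2.96 RPKM at 6 h, against 1.99, 1.903 and 1.71 RPKM in control (log2 difference 0.59 ± 0.12 SE, adjusted p = 0.0484). Slc39a10, which imports zinc, measured 0.562, 0.636 and 0.487 RPKM at 6 h, against 1.63, 2.76 and 2.26 RPKM in control (log2 difference -1.34 ± 0.19 SE, adjusted p = 0.021). The 6 h levels of Slc39a10 lie near the pseudocount of 0.5, so the fitted difference understates the fold. The other 18 tested members did not pass and the list's median was -0.05. Among 13 polyamine genes Paox, which oxidises acetylated polyamines, rose to 3.1996, 3.18 and 3.08 RPKM against 2.16, 2.17 and 1.97 RPKM (log2 difference 0.49 ± 0.09 SE, adjusted p = 0.0438), and Azin1, which protects the polyamine-making enzyme, stood at 6.68, 8.74 and 5.33 RPKM at 6 h and 11.6, 23.6 and 19.2 RPKM in control just short of the threshold (log2 difference -1.30 ± 0.26 SE, adjusted p = 0.0504).

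Of 239 genes that the authors' table annotates as splicing regulators 7 rose (2.93% against 0.999%) and 3 fell (1.26% against 0.601%). Rbm39, a splicing coactivator, measured 35.3, 33.3 and 31.4 RPKM at 6 h, against 22.4, 21.6 and 23.6 RPKM in control (log2 difference 0.56 ± 0.10 SE, adjusted p = 0.0386). Srrm1, a matrix protein of the spliceosome, measured 12.9, 10.99 and 12.7 RPKM at 6 h, against 7.87, 7.01 and 7.94 RPKM in control (log2 difference 0.65 ± 0.11 SE, adjusted p = 0.0303), and Sf3b1, which reads the branch point, 15.7, 17.7 and 14.2 RPKM against 9.77, 11.03 and 11.1 RPKM (log2 difference 0.55 ± 0.10 SE, adjusted p = 0.0386). Clk1, a kinase that acts on SR splicing proteins and which this annotation does not count there, rose to 6.46, 5.65 and 6.25 RPKM at 6 h, against 3.92, 3.68 and 3.94 RPKM in control (log2 difference 0.61 ± 0.11 SE, adjusted p = 0.0338). The fallen ones were Cpeb1, the poly(A) polymerase Papola (log2 -0.69) and the cap-binding subunit Ncbp2 (log2 -0.49). Mettl3, the catalytic subunit of the mRNA methyltransferase, fell to 4.11, 4.64 and 4.04 RPKM at 6 h, against 6.37, 6.38 and 6.05 RPKM in control (log2 difference -0.51 ± 0.09 SE, adjusted p = 0.0318). Srrm1, Sf3b1, Papola, Ncbp2 and Mettl3 were picked after their values were seen.

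Cirbp, a cold-inducible RNA-binding protein, measured 48.5, 44.2 and 43.2 RPKM at 6 h, against 19.5, 19.98 and 19.3 RPKM in control (log2 difference 1.18 ± 0.21 SE, adjusted p = 0.0353). Its controls were nearly equal, and the call held in 1 of 6 left-out fits. Rbm3, the other cold-inducible member, stood at 68.02, 97.4 and 62.2 RPKM at 6 h and 45.6, 58.9 and 55.9 RPKM in control (log2 difference 0.48 ± 0.20 SE, adjusted p = 0.233). Neat1, the long RNA that builds nuclear paraspeckles, measured 25.6, 20.9 and 20.5 RPKM at 6 h, against 69.1, 45.4 and 56.5 RPKM in control (log2 difference -1.32 ± 0.20 SE, adjusted p = 0.0243). At 2 h it stood at 154, 127 and 95.7 RPKM, so that 6 h libraries lay below both other groups (log2 -2.45 against 2 h, adjusted p = 0.00865).

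Of 63 microRNA loci tested 1 was called higher and 0 lower, beside 0.999% and 0.601% of all tested genes. The values there are reads over the hairpin from a library of long RNA, so they do not measure the mature microRNA. Which transcript these reads come from was not tested. The Mir29c locus, at chr1:196863741-196863828 in mm9, measured 4.22, 3.24 and 4.11 RPKM at 6 h, against 2.13, 1.37 and 1.47 RPKM in control (log2 difference 1.03 ± 0.18 SE, adjusted p = 0.0322). Neither edgeR nor DESeq2 called this locus on the recovered reads. It lies within A330023F24Rik on the same strand, which did not pass as a whole (log2 0.39, adjusted p = 0.574). A330023F24Rik stood at 0.540, 0.739 and 1.93 RPKM at 6 h and 0.361, 0.823 and 0.716 RPKM in control. The second locus of interest is that of Mir22, at chr11:75277218-75277312, inside the host RNA 2210403K04Rik. The host measured 20.2, 17.04 and 27.95 RPKM at 6 h, against 6.99, 8.68 and 7.72 RPKM in control (log2 difference 1.40 ± 0.28 SE, adjusted p = 0.0488). The hairpin itself stood at 42.6, 31.8 and 62.5 RPKM at 6 h and 13.8, 17.4 and 15.3 RPKM in control without passing (log2 difference 1.48 ± 0.34 SE, adjusted p = 0.0683). Tlcd2, a lipid-related membrane gene that overlaps the host on the same strand, rose to 12.3, 10.1 and 15.7 RPKM, against 4.35, 5.28 and 4.92 RPKM in control (log2 difference 1.28 ± 0.25 SE, adjusted p = 0.0449), so these 3 measurements may share reads. The mature arms that these hairpins yield are shown from RefSeq (GRCm38.p6) with the seed, bases 2 to 8, in capitals.
mmu-miR-29c-3p (chr1:195037600-195037621, plus strand): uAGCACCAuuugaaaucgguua
mmu-miR-22-3p (chr11:75463772-75463793, plus strand): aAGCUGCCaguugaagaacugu
The seeds differ, and of the loci tested Mir29b-2, which lies beside Mir29c, shares the seed of miR-29c-3p. It stood at log2 0.41 (adjusted p = 0.531).

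Among genes that HIF switches on, limma called none higher. Of 39 HIF target genes 0 were called higher and 1 lower, Ddit4, with a median of 0.04 beside 0.05 for all genes. At an unadjusted p under 0.05 in limma there were 15, in either direction, beside 2543 of all 13309 tested genes. In edgeR 0 were called higher and 2 lower, beside 123 and 193 of all tested genes. In DESeq2 it was 1 higher and 7 lower, beside 513 and 616. The median was -0.03 in edgeR and -0.02 in DESeq2. Pfkfb3, which drives glycolysis, stood at 8.36, 11.7 and 11.5 RPKM at 6 h and 38.1, 43.9 and 36.6 RPKM in control, and the wide spread of the 2 h libraries, 37.6, 4.79 and 5.04 RPKM, entered its error (log2 difference -1.87 ± 0.64 SE, adjusted p = 0.168). Vegfa, the vascular growth factor, stood at 24.3, 18.4 and 27.01 RPKM at 6 h and 37.2, 30.4 and 31.4 RPKM in control (log2 difference -0.51 ± 0.16 SE, adjusted p = 0.137). Of 12 HIF subunits and oxygen sensors 0 passed (median 0.13). Egln2, a prolyl hydroxylase that marks HIF for destruction, stood at 54.3, 57.2 and 53.03 RPKM at 6 h and 42.5, 44.4 and 43.3 RPKM in control (log2 difference 0.33 ± 0.08 SE, adjusted p = 0.0635), and Egln3 at 21.7, 25.9 and 20.8 RPKM and 32.3, 30.7 and 32.96 RPKM (log2 difference -0.48 ± 0.13 SE, adjusted p = 0.1). Of 35 glycolysis and glycogen genes 0 passed (median -0.10), and likewise 0 of 24 genes of vascular growth signalling (median -0.11), 14 genes of pyruvate dehydrogenase control (median 0.04) and 34 respiratory chain genes (median 0.06).

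Other lists had no called member (plot of list medians). The 52 cytosolic ribosomal protein genes all had a higher mean at 6 h, by a median of 0.22, beside 7641 of 13309 tested genes. Of the 52, 0 passed in limma, edgeR or DESeq2. At an unadjusted p under 0.05 in limma there were 5, beside 2543 of 13309 tested genes. Of 29 genes of the HSP70 system 0 passed (median -0.19), as did 0 of 28 genes of the unfolded protein response (median -0.18), 0 of 32 of autophagy and lysosome (median 0.07), 0 of 26 inflammatory genes (median -0.40) and 0 of 31 interferon-induced genes (median 0.06). In the fit without the 3 libraries high in matrix genes the inflammatory median was close to 0. The inflammatory list had a mean of 0.38 in 6 h replicate 2, against 0.90 in control replicate 2 and -0.28 in control replicate 1. In the antioxidant list 0 of 31 passed (median 0.14), although Gpx3, a secreted glutathione peroxidase, stood at 212, 193 and 187 RPKM at 6 h and 136, 123 and 114 RPKM in control (log2 difference 0.66 ± 0.14 SE, adjusted p = 0.0514). The sign of the HIF target, PI3 kinase, endothelial, ion channel, pyruvate dehydrogenase and respiratory chain medians turned under at least 1 other scaling. No gene of the ion channel list (27 tested, median 0.01), the iron list (17, median -0.01), the amino acid transporter list (20, median -0.02) or the denervation list (18, median -0.06) passed.

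**Figure D5:**
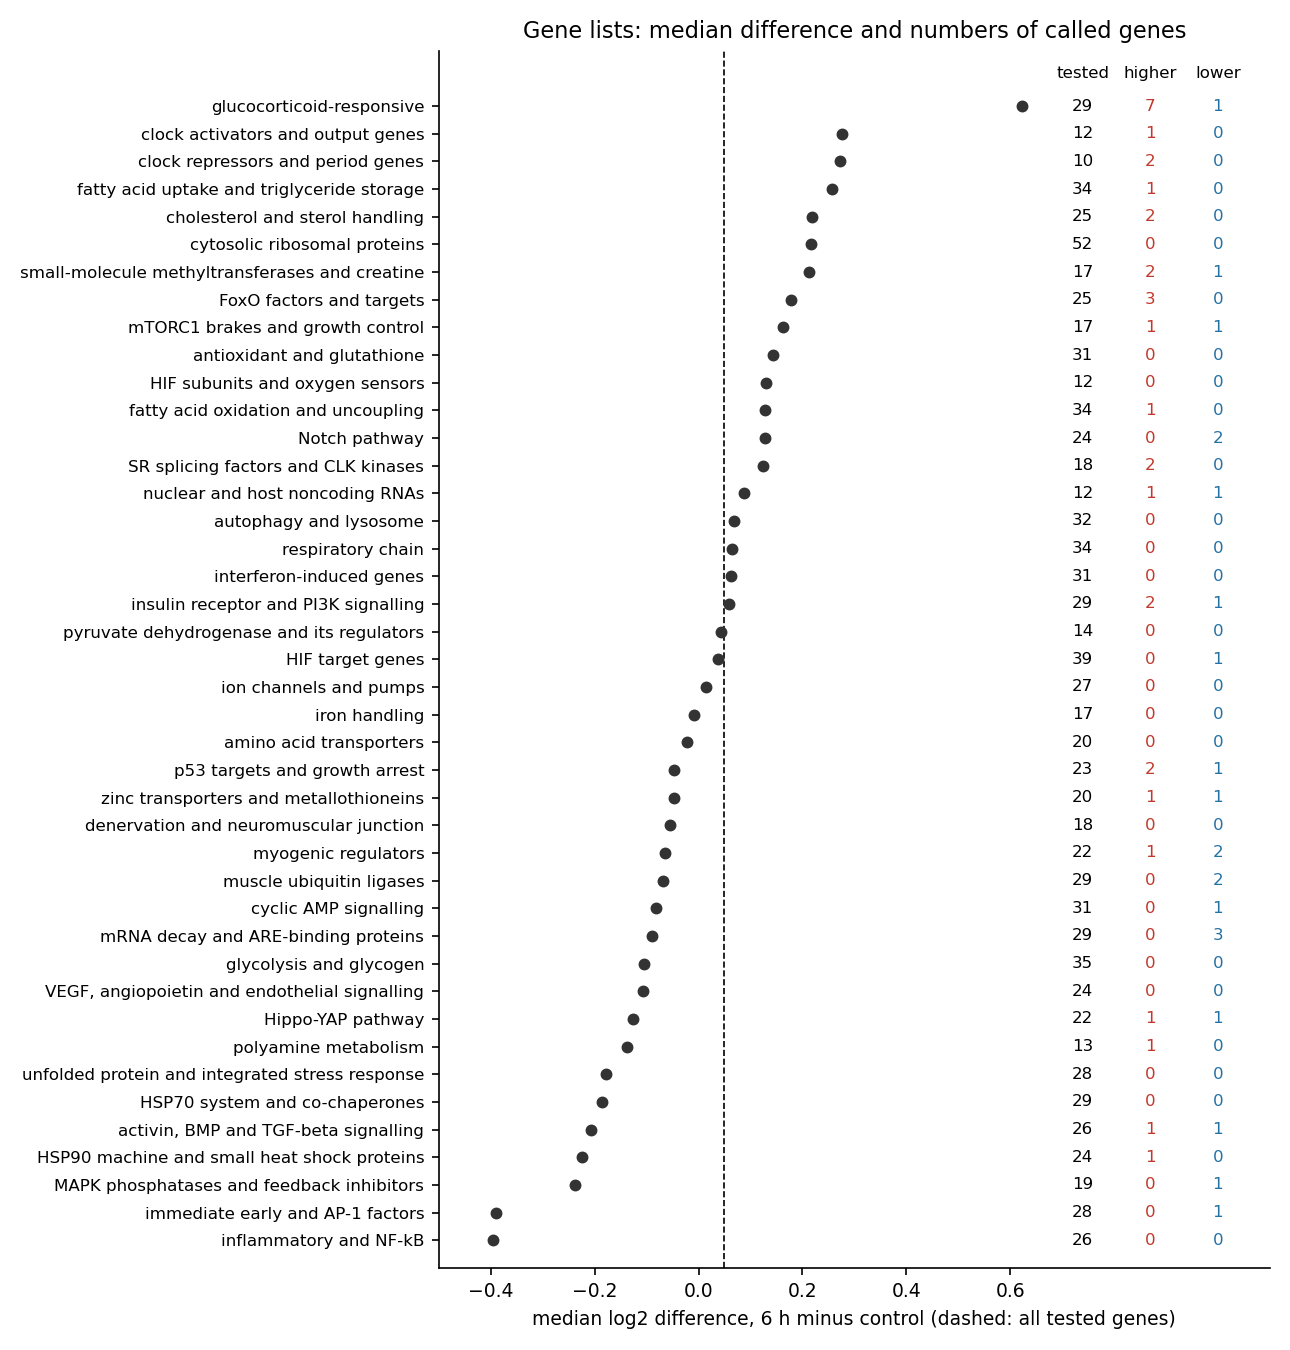
Median log2 difference (6 h minus control) of each gene list with at least 7 tested members, cell type and fibre lists left out, with the numbers of tested genes and of genes called higher and lower at right. The dashed line is the median of all tested genes, 0.05. The glucocorticoid-responsive list stands highest at 0.62, and the inflammatory list lowest at -0.40.

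Robo4, an endothelial guidance receptor, was the only called gene of 14 endothelial markers (median 0.03), at 4.43, 3.56 and 4.41 RPKM at 6 h against 2.05, 2.15 and 2.21 RPKM in control (log2 difference 0.81 ± 0.12 SE, adjusted p = 0.0243). Gata2, a transcription factor of endothelium and blood, measured 2.21, 1.69 and 3.095 RPKM at 6 h, against 0.828, 0.597 and 0.573 RPKM in control (log2 difference 1.26 ± 0.20 SE, adjusted p = 0.0294). Tmem100, a membrane protein of endothelium downstream of BMP signals, fell to 3.08, 4.25 and 5.41 RPKM, against 11.1, 10.1 and 9.701 RPKM in control (log2 difference -1.22 ± 0.17 SE, adjusted p = 0.0202), and 6 h was also below 2 h (log2 -1.14, adjusted p = 0.0499). Tnfrsf19, a receptor of the tumour necrosis factor family, measured 0.919, 0.678 and 0.881 RPKM at 6 h, against 3.35, 2.18 and 2.32 RPKM in control (log2 difference -1.22 ± 0.21 SE, adjusted p = 0.0318).

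The remaining large rises included Doc2b, a calcium sensor of vesicle fusion, at 1.99, 1.201 and 2.02 RPKM at 6 h against 0.357, 0.182 and 0.216 RPKM in control (log2 difference 1.56 ± 0.21 SE, adjusted p = 0.021), and Ephb1, an ephrin receptor, at 0.962, 1.29 and 1.01 RPKM against 0.246, 0.14000 and 0.07796 RPKM (log2 difference 1.28 ± 0.21 SE, adjusted p = 0.0302). The controls of both lie under the pseudocount, so their fitted differences understate the fold. Others were Ift27, a small GTPase of ciliary transport (27.5, 22.5 and 20.1 RPKM at 6 h against 7.06, 9.57 and 11.8 RPKM in control), and Cys1, or cystin (2.58, 1.95 and 2.08 RPKM against 0.758, 0.448 and 0.695 RPKM). Tmem229b, of unstated role, measured 3.78, 2.89 and 3.09 RPKM at 6 h, against 0.961, 0.942 and 0.961 RPKM in control (log2 difference 1.36 ± 0.16 SE, adjusted p = 0.0125), and Cdhr3, a cadherin relative, 1.69, 1.45 and 1.42 RPKM against 0.386, 0.207 and 0.336 RPKM. Tcfcp2l1, a grainyhead-related transcription factor, measured 4.53, 5.59 and 4.56 RPKM at 6 h, against 2.403, 0.958 and 1.79 RPKM in control (log2 difference 1.33 ± 0.25 SE, adjusted p = 0.0386). The remaining large falls were Ccdc69, a coiled-coil protein, at 0.598, 0.704 and 0.634 RPKM at 6 h against 2.44, 2.57 and 3.04 RPKM in control (log2 difference -1.47 ± 0.16 SE, adjusted p = 0.00854), B3galnt2, which builds the sugar chain of dystroglycan (9.56, 7.38 and 9.405 RPKM against 20.2, 18.5 and 18.97 RPKM), B4galt5, a glycolipid galactosyltransferase (1.24, 1.73 and 1.03 RPKM against 3.24, 3.79 and 2.49 RPKM), and Fam70b (1.08, 1.49 and 0.625 RPKM against 2.77, 2.69 and 3.36 RPKM). The 6 h and control libraries were apart in these 11 genes, as in every called gene. The rule for naming the strongest genes required it, so this sets none of them off.

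Reads may be shared where genes overlap, since use of strand in counting is not given in the sources used here. By deposited mm9 gene bodies, 68 of the 213 called genes overlap another gene of the table, among them Ddit4 and Papola on the same strand. The names that follow come instead from exon overlaps in a later annotation, so some are not among the 68. Among those described, Foxo1, Pitx3, Cry2, Usp2, Zfp36, Asb5, Yap1, B3galnt2, Fam70b, Slc30a1, Adh1, Mettl3, Paox, Pik3ip1, Sult1a1, Doc2b, Ephb1, Ncbp2 and Aldh1l1 overlap a gene on the opposite strand in the later annotation, and Neat1, Tcfcp2l1 and Tlcd2 a gene on the same strand. By mm9 gene bodies, both members were called, in the same direction, in 6 overlapping pairs. These were Foxo1 with RP24-337A16.1, Pik3r1 with Gm11016, Slc30a1 with 1700034H15Rik, Adh1 with Gm16559, Tlcd2 with 2210403K04Rik and Slc25a33 with Gm13068.

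The level at 6 h also differed from that at 2 h for 15 of the 213 genes, 8 higher and 7 lower. In all, 19 of 13309 genes (0.143%) differed between the times. Both contrasts use the same 6 h libraries, so the 15 are no separate support for the calls against control.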

How the data were processed

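Total RNA of plantaris was sequenced as paired-end libraries, 3 per group. Per the submitters' processing notes, FastQC, TopHat2, Bowtie2, SAMtools and bedtools were used on build mm9, with the counting tool and strand setting not given in the sources used here. Values deposited are RPKM per gene and library, which the authors normalized to library size and exon length, and, per the file headers, a maximum read count per gene. The file also holds the authors' fold and p-values. By the authors' deposited table, an adjusted p-value under 0.05 was reached at 6 h by 6 genes, with a test the file does not name. A raw p-value under 0.05 in that test was reached by 2373. All 213 genes called here had such a raw p-value, which comes from the same libraries and is no separate support for the calls.

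The package limma 3.58.1 (R 4.3.3) was used on log2(RPKM + 0.5) of all 9 libraries, with a mean-variance trend, for the 13309 genes with a mean of at least 0.5 RPKM. Tests were two-sided, with Benjamini-Hochberg adjustment over all tested genes and a threshold of 0.05. Fold changes are on the log2(RPKM + 0.5) scale, which understates the change of low genes. As an alternative, whole reads were recovered from the RPKM steps and tested with edgeR 4.0.16 and DESeq2 1.42.0. The relative depths of the libraries were chosen so that low values came out whole. Of 40165 values under 500 reads, 40165 were whole within 0.1 read, which is therefore no separate check. Values of 500 reads and over were not checked. On the recovered reads edgeR called 316 genes. The fits were also run on simulated data in which each gene varied on its own. Shifts of many genes together in a library were therefore not covered. Replicates of a group differed by 66.56 to 290.4 in chi-square per gene, so no library was counted as a repeat of another. Whether every library is from its own mouse is not stated in the labels. The p-values then reflect only how these libraries vary, which may be technical.

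Genes were named if they were among the 20 strongest in either direction of the called genes with groups apart (predicted genes aside), if they were called members of a list, or if they ranked in the 4 lowest p of a list's other members. The libraries, members and lists were chosen with earlier results of these data known. Genes named outside the rule, chosen after their values were seen, were Agfg2, BC031353, Eya2, Meox1, Tcap, Lmod2, Jup, Adcy4, Akap1, Stard3, Adh1, Srrm1, Sf3b1, Papola, Ncbp2, Mettl3 and the loci set beside the microRNAs and overlapping pairs. Promoter and microRNA sequences are from RefSeq on GRCm38.p6, and gene coordinates are mm9 as deposited. A few genes that the rule selects are not reported here.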

Additional observations from a re-analysis of the deposited data

Results flagged for a closer look

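Each of the 15 genes below was called at 6 h against control and also differed in the limma fit between 6 h and 2 h, so that its difference from control is not the same at both times. The values are log2 differences, 6 h minus 2 h, adjusted over all 13309 tested genes, and no explanation was tested. Those higher at 6 h were 6430548M08Rik (2.04, adjusted p = 0.0499), Mtss1 (1.13, adjusted p = 0.0487), Amotl2 (1.08, adjusted p = 0.0499), Fam117b (0.87, adjusted p = 0.0336), Abhd1 (0.85, adjusted p = 0.0499), Jup (0.83, adjusted p = 0.0499), Pitx3 (0.77, adjusted p = 0.0336) and Tpst2 (0.72, adjusted p = 0.0499). Those lower at 6 h were Neat1 (-2.45, adjusted p = 0.00865), Tmem100 (-1.14, adjusted p = 0.0499), B3galnt2 (-1.09, adjusted p = 0.0499), Gm16983 (-0.80, adjusted p = 0.0418), Gm17345 (-0.66, adjusted p = 0.0499), Mettl3 (-0.64, adjusted p = 0.0499) and Actr6 (-0.61, adjusted p = 0.0418).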

How the results depend on the processing

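The main counts were 213 genes called, 133 higher and 80 lower, and the cause of the moves below was not tested. Median centring gave 131 lower, quantile normalization 155 lower and edgeR 193 lower. Library weights gave 4113 called (2306 higher, 1807 lower), DESeq2 1129 (513 higher, 616 lower) and a term for the 3 libraries high in matrix genes 374 (246 higher, 128 lower). The fit on only the 6 libraries compared gave 73 (43 higher, 30 lower), which has fewer samples to estimate the spread. Without the 3 libraries high in matrix genes limma called 0, with 0 higher and 0 lower. Leaving out 1 library at a time gave 10 to 417 called, 6 to 205 higher and 4 to 212 lower. Of the 213 genes, 34 were called in none of the 6 fits without a 6 h or control library, and the median gene was called in 15 of 24 alternatives. The 39 called genes with a mean below 2 RPKM could not be called under a filter of 2 RPKM.

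Replicate numbers are shared by the groups. Deviations of same-numbered 6 h and control libraries correlated at 0.352, 0.493 and -0.331, so the numbers were not taken as pairs. With the replicate block 43 genes were called, 25 higher and 18 lower, of which 42 were among the 213.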
